A study of Danio rerio with 21 samples.

Results

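In runx1 morphants the cells of the haemogenic gate were compared with the cells of the aortic roof, a pair of populations that no single deposited table sets side by side. The embryos were zebrafish of 28 to 30 hpf (hours post fertilisation) that all carried TgBAC(runx1P2:Citrine), in which runx1 regulatory sequence drives Citrine, and Tg(kdrl:mCherry), in which the kdrl promoter marks endothelium with mCherry. The morphant group (MO) was the DP-R1hi gate, bright for Citrine and positive for mCherry, of embryos injected with a runx1 morpholino. The roof group was the DP-R1lo gate of non-injected embryos (Wt), dim for Citrine and positive for mCherry, termed aortic roof endothelium (ARE). The DP-R1hi gate of non-injected embryos, termed haemogenic endothelium (HE), gave the reference level, and each group had 3 libraries, of 21 in the series. Members were the 397 genes present in both the HE against ARE table and the MO against HE table, of 3064 genes in any of the 3 deposited tables. Every listed gene had been called against HE by the authors, so a member differed from HE in both the roof and the morphants by construction, and neither of those differences is a result here.

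Haemogenic endothelium lies in the floor of the dorsal aorta and gives rise to the first blood stem cells by an endothelial-to-haematopoietic transition, in which cells leave the vessel wall. The Runx1 transcription factor is required for that step, and it acts with the Gfi1 repressors that switch off endothelial genes while blood genes come on. The roof of the same vessel stays arterial, under Notch and Vegf signalling. The comparison therefore asked, for each member, whether cells of the haemogenic gate in injected embryos stood at the roof level, short of it, past it, or away from it.

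The morpholino is the only agent that separates the injected from the non-injected embryos, and it is shown because the comparison turns on it. It was designed against the junction of exon 1 and intron 1 of the runx1 P2 transcript. Capitals mark GTAAG, the opening letters of a typical intron donor, in the reverse complement (bases 15 to 19 of 25), and its complement in the oligo.
runx1 morpholino: agcgctCTTACcgtatttggcgtcc
reverse complement: ggacgccaaatacgGTAAGagcgct

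The control embryos were non-injected, so an effect of injection and an effect of runx1 loss cannot be told apart, and between MO and ARE the gate and the injection differ together. Embryos of several clutches were pooled in each experiment, each clutch having been divided between the injected and non-injected arms. Cells were sorted on reporter brightness and not on runx1 transcript, and runx1 itself is not analysed here because neither table lists it, so the knock-down has no check in these values. The unit was CPM, a read count scaled to the effective size of its library, from a pair of separate normalisations. The 3 HE libraries appear in both tables and their values differed by constant ratios of 1.08, 1.08 and 1.097, each the same for 100% of genes (tolerance 1e-06). The MO values were divided by the mean ratio of 1.08 to put them on the scale of the ARE values. This scaling is approximate, since it was read from the HE libraries and carried over to MO, and the MO DP-R1hi CPM values below are after it.

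Effective library sizes, read from the smallest step between values and taking 1 step as 1 read, were 13.8 to 16.6 M reads for ARE and 9.72 to 14.9 M reads for MO. The same HE libraries had 16.2 to 19.3 M reads in the normalisation shared with ARE and 15.0 to 17.6 M reads in that shared with MO. Over the members, log2 values of replicate libraries correlated at 0.898 to 0.940 in MO, 0.951 to 0.959 in ARE and 0.967 to 0.976 in HE, so the morphant libraries were the most variable. Markers of broad cell types were summed in each group. The set held no haemogenic or arterial marker, so the gate names themselves were not checked. The endothelial genes kdrl, cdh5, pecam1 and egfl7 summed to 627 to 1137 CPM in ARE and 37.7 to 111 CPM in HE, and the table with MO lists none of them. That table lists another endothelial gene, the ETS factor fli1a, at 492 to 516 CPM in HE and 279 to 325 CPM in MO, with no value for ARE. Macrophage markers (3 of 4 listed: mpeg1.1, mfap4, csf1ra) summed to 614 to 929 CPM in ARE, 479 to 600 CPM in MO and 45.1 to 72.3 CPM in HE. The granulocyte markers mpx and cpa5 summed to 5687 to 7384 CPM in HE and 1588 to 2549.9 CPM in MO, with no value for ARE. Mesenchyme markers present in both tables (col1a1a and col1a2, of 4) summed to 25.4 to 40.9 CPM in MO, and with pax9, which only the ARE table lists, to 570.0 to 756 CPM in ARE and 4.56 to 14.03 CPM in HE. Epidermal markers varied most between libraries, with sums of 68.7 to 2356 CPM in MO (3 genes) and 276 to 2105 CPM in ARE (4 genes, those 3 included). Globin genes took 10.3 to 16.6% of effective reads in MO and 3.54 to 4.75% in HE, both within their own table, with no value for ARE. In RNA from sorted pools, a change in the number of cells of a type and a change in RNA per cell cannot be told apart.

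Across the 397 genes, 208 (52.4%) differed between MO and ARE at an adjusted p under 0.05 (limma on log2(CPM + 1), two-sided, Benjamini-Hochberg over all 397), 35 higher in MO (8.82%) and 173 lower (43.6%). At an unadjusted p under 0.05 the number was 233 (58.7%). Each gene was then placed by that test and by the HE level. A gene was short of the roof when it differed from ARE and its MO mean lay between HE and ARE, as for 167 genes (42.1%). It was past the roof when it differed from ARE and lay beyond it, as for 5 genes (1.26%). It was on the far side when it differed from ARE and MO had moved away from HE in the direction opposite to the roof, as for 36 genes (9.07%). The choice of members fixes the direction of these 36, which make up 19 of the 35 genes higher in MO and 17 of the 173 lower. A gene counted as having reached the roof when it did not differ and the whole 95% interval of the difference lay within 1 log2 unit, as for 97 genes (24.4%). In 33 of these 97 the HE mean itself lay within 1 log2 unit of the ARE mean. An interval inside the margin could still leave out 0, as for gadd45ba (-0.96 to -0.048) and cst14b.1 (0.042 to 0.85). The MO and ARE libraries did not overlap for either of them. The remaining 92 (23.2%) were not resolved. They did not differ at that threshold, but their interval reached beyond the margin, by its width or because the difference itself lay off 0. Differences are MO minus ARE on log2(CPM + 1) throughout, so a gene at a negative value lies below the roof. Counts for the gene lists below are to be read beside these shares over all 397 genes. The median interval reached 0.67 log2 units to each side, which is the precision that 3 libraries against 3 gave. In 244 genes (61.5%) the MO and ARE libraries did not overlap. The MO and HE libraries did not overlap in 362 genes (91.2%), which follows the choice of members. The plot of distances from HE shows these positions, with most roof genes lying below the line on which MO would equal ARE.

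**Figure D1:**
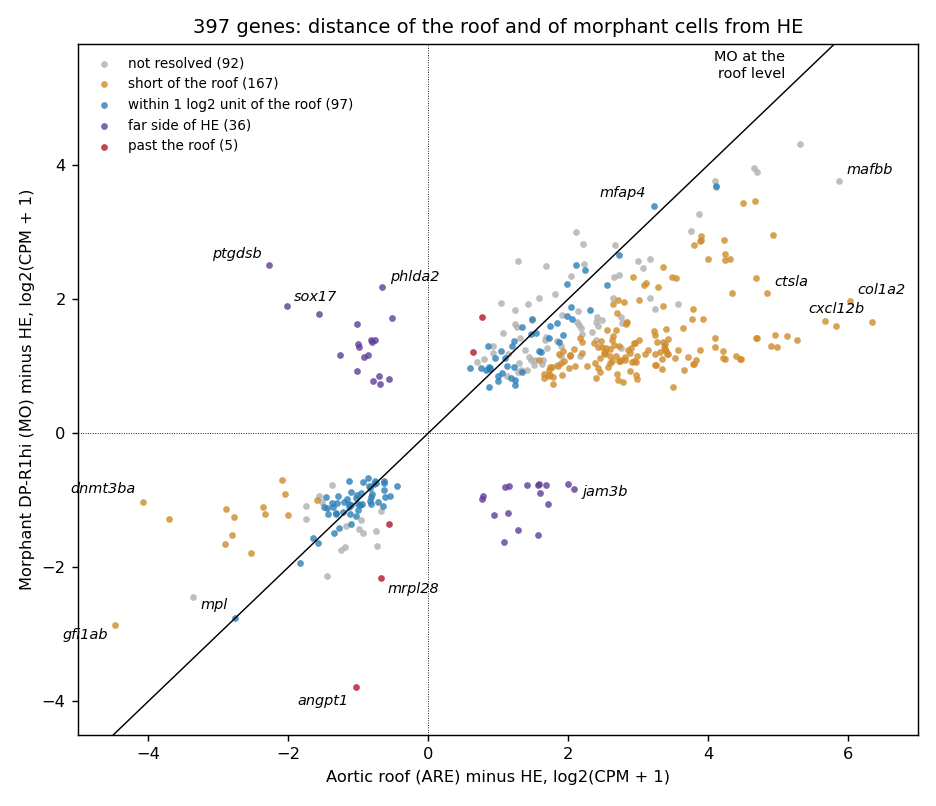
Each point is 1 of the 397 genes, with the ARE minus HE difference on the x axis and the MO minus HE difference on the y axis, both in log2(CPM + 1) over 3 libraries a group, coloured by position against the roof. On the diagonal MO equals ARE; the 167 genes short of the roof lie between the diagonal and the horizontal zero line, and the 36 far-side genes fill the remaining quadrants. The HE libraries enter both axes.

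Of the members, 86 were higher in HE than in ARE and fell in morphants, and 53 of these (61.6%) reached the roof level, 14 (16.3%) stayed short, 3 (3.49%) passed it and 16 (18.6%) were not resolved. Their median MO minus ARE difference was 0.047 log2 units, beside -0.61 over all members. Another 275 were higher in ARE than in HE and rose in morphants, and 44 of these (16%) reached the roof, 153 (55.6%) stayed short, 2 (0.727%) passed it and 76 (27.6%) were not resolved, with a median difference of -0.95 log2 units. The distance to be covered differed too, with a median of 1.15 log2 units from HE to ARE in the genes that fell and 2.59 in those that rose. A gene with a distance of 1 or less can lie in the margin with little movement. Such distances held for 23 of the 53 falling genes and 10 of the 44 rising genes that reached the roof. Among genes with an HE to ARE distance of 1 to 2 log2 units, 29 of 40 falling genes reached the roof and 1 stayed short, while 25 of 74 rising genes reached it and 16 stayed short. At 2 to 3 log2 units, 10 of 11 falling genes and 61 of 94 rising genes stayed short, and above 3 log2 units 3 of 4 and 76 of 91 did. These shares are descriptions, since the ARE libraries enter both the distance and the difference, and the difference between the groups was not tested.

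**Figure D2:**
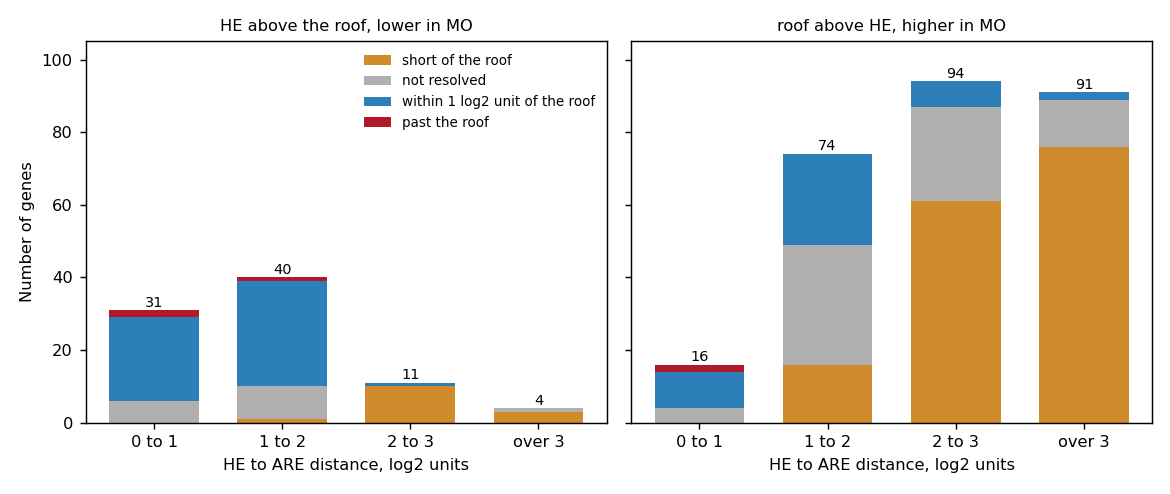
Bars count genes by the absolute HE to ARE distance (x axis, log2 units) for the 86 genes that fell (left) and the 275 genes that rose (right) in morphants against HE, stacked by position against the roof, with the total above each bar. Between 1 and 2 log2 units most falling genes (29 of 40) were within the margin, and above 2 log2 units genes short of the roof were the largest part of every bar.

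This balance depended on the scaling. Centring every library on its median over the members moved each difference up by 0.83 log2 units and the median from -0.61 to 0.22, giving 115 genes higher and 91 lower and 39 past the roof. Of the 86 genes that fell, 58 were then above the roof and 1 below it, and of the 275 that rose, 38 were above and 73 below. That median is not a neutral reference, because 292 of the 397 members had the roof above HE. Leaving the tables unscaled gave 194 calls, of which 188 were shared with the 208, and the lowest and highest library ratio gave 206 and 214.

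Haemogenic transcription factors were represented by 16 members, of which 5 stayed short, 4 reached the roof, 3 lay on the far side and 4 were not resolved (median difference 0.17 log2 units, beside -0.61 over all members). gfi1ab, a Gfi1-family repressor of endothelial genes in haemogenic cells, was the HE gene among those 5. It measured 32.6, 49.6 and 38.5 CPM in HE, 4.56, 4.69 and 4.56 CPM in MO and 1.02, 0.361 and 1.23 CPM in ARE. The 3 groups did not overlap, and MO exceeded ARE by 1.61 (95% interval 1.03 to 2.20, adjusted p = 0.0011), having covered 63.9% of the distance on the log2 scale. The chromatin enzymes ezh2, a histone H3 lysine methyltransferase, and kdm6bb, a demethylase of the same mark, both reached the roof margin, with differences of 0.19 (adjusted p = 0.44) and 0.50 (adjusted p = 0.082). hmga1a, a chromatin architectural protein, had 2611, 3269 and 2066 CPM in MO and 3275, 3382 and 3242 CPM in ARE, with a difference of -0.34 (adjusted p = 0.19). HE had 4315, 4817 and 4342 CPM of it. The HE to ARE distance was 0.44 log2 units for hmga1a and 0.86 for ezh2. HE itself thus lay within the margin for both, and little movement was needed to reach the roof. bcl6a, znf296, arid3c and mafbb were not resolved. After centring, 9 of the 16 were above the roof and 0 below it. Among the factors that rose, spi1a, a Spi1-family gene also on the myeloid list, reached the roof with a difference of 0.16 (adjusted p = 0.62). It had 177, 308 and 222 CPM in MO, 189, 241 and 190.4 CPM in ARE and 97.4, 118 and 102 CPM in HE. HE itself lay within the margin for spi1a as well. erg, an ETS factor of endothelium, rose from 5.93, 5.95 and 6.47 CPM to 8.59, 31.9 and 20.1 CPM and stayed short at -2.02 (adjusted p = 0.014), beside 47.6, 63.7 and 139 CPM in ARE. lmo4a, mafba and zbtb16a were also short of the roof, but each lost its call when single libraries were left out, in 4, 5 and 2 of the 6 fits (adjusted p up to 0.12, 0.11 and 0.059). lmo4a did so without MO replicate 2 or 3 or ARE replicate 1 or 3, zbtb16a without ARE replicate 2 or 3, and mafba without any library but MO replicate 3.

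All 5 members among the DNA methyltransferases and uhrf1 were HE genes that fell in morphants. dnmt3ba, a de novo DNA methyltransferase, was the furthest from the roof of the 86 HE genes that fell. HE had 632, 708 and 662 CPM, MO 281, 347 and 354 CPM and ARE 37.6, 37.2 and 40.5 CPM, and MO lay 3.05 (95% interval 2.63 to 3.47, adjusted p = 2.8e-05) above the roof. On the log2 scale MO had covered 25.3% of the distance. dnmt3bb.1, a related enzyme that acts in blood stem cell formation in zebrafish, came closer, at 59.4, 82.7 and 70.6 CPM in MO against 39.1, 35.7 and 52.2 CPM in ARE and 230.2, 269 and 241 CPM in HE, a difference of 0.74 (adjusted p = 0.032). That call was lost without MO replicate 2 or 3 or ARE replicate 1 or 2 (adjusted p up to 0.10). dnmt3bb.2 and uhrf1, which brings the maintenance methyltransferase to newly copied DNA, both reached the roof, with differences of 0.33 (adjusted p = 0.30) and 0.056 (adjusted p = 0.81). dnmt3ab had 11.4, 9.88 and 29.0 CPM in MO, 31.4, 23.2 and 37.0 CPM in ARE and was not resolved. Where these copies are near-identical, the counting could have split their reads.

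Of 20 blood cell receptors and signalling partners, 11 reached the roof, 5 stayed short, 1 passed it and 3 were not resolved (median difference -0.12 log2 units, 0.71 after centring). mpl, the thrombopoietin receptor of stem cells and megakaryocytes, reached the roof at a low level. HE libraries held 8.71, 24.5 and 12.3 CPM, MO libraries 1.12, 1.23 and 1.23 CPM and ARE libraries 2.25, 1.08 and 0.555 CPM, and the MO values fell inside the ARE range (difference 0.002, 95% interval -0.67 to 0.67, adjusted p = 0.99). The phosphoinositide 3-kinase pathway genes pik3r1, the regulatory subunit, pik3cd, the leukocyte catalytic subunit, and akt1, the downstream kinase, differed from ARE by -0.046, 0.33 and 0.032 log2 units and all reached the roof. Among members within the margin and with an HE to ARE distance over 1, pik3r1 had the interval whose outer bound lay closest to the roof, with 97.4, 84.7 and 82.4 CPM in MO, 90.7, 87.8 and 94.0 CPM in ARE and 179, 192 and 182 CPM in HE, a difference of -0.046 (95% interval -0.46 to 0.37, adjusted p = 0.83). syk, a tyrosine kinase of immune receptors, and tagapb, a GTPase activator, were at 41.2, 50.4 and 32.2 CPM and 44.6, 57.0 and 39.7 CPM in MO against 45.4, 52.7 and 38.1 CPM and 51.8, 42.3 and 35.7 CPM in ARE. Both lay inside the margin, and the libraries of MO and ARE overlapped for each. skap1, an adaptor of T cell integrin signalling, was the only falling gene of this list that stayed short. Its difference was 1.52 (adjusted p = 0.0021), with 18.5, 21.1 and 19.1 CPM in MO against 8.22, 5.78 and 4.81 CPM in ARE. Of the other falling genes, angpt1 passed the roof and irf1b and prkcbb were not resolved. irf1b, an interferon regulatory factor, had 87.9, 75.8 and 76.0 CPM in HE, 15.0, 13.6 and 12.9 CPM in MO and 13.0, 5.24 and 4.57 CPM in ARE, and its difference of 0.92 (95% interval 0.033 to 1.80, adjusted p = 0.077) was not resolved. Among the genes that rose, cxcr4a, the receptor of the Cxcl12 chemokines, and entpd1, an ectonucleotidase, stayed short at -1.19 (adjusted p = 0.01) and -1.05 (adjusted p = 0.0021).

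**Figure D3:**
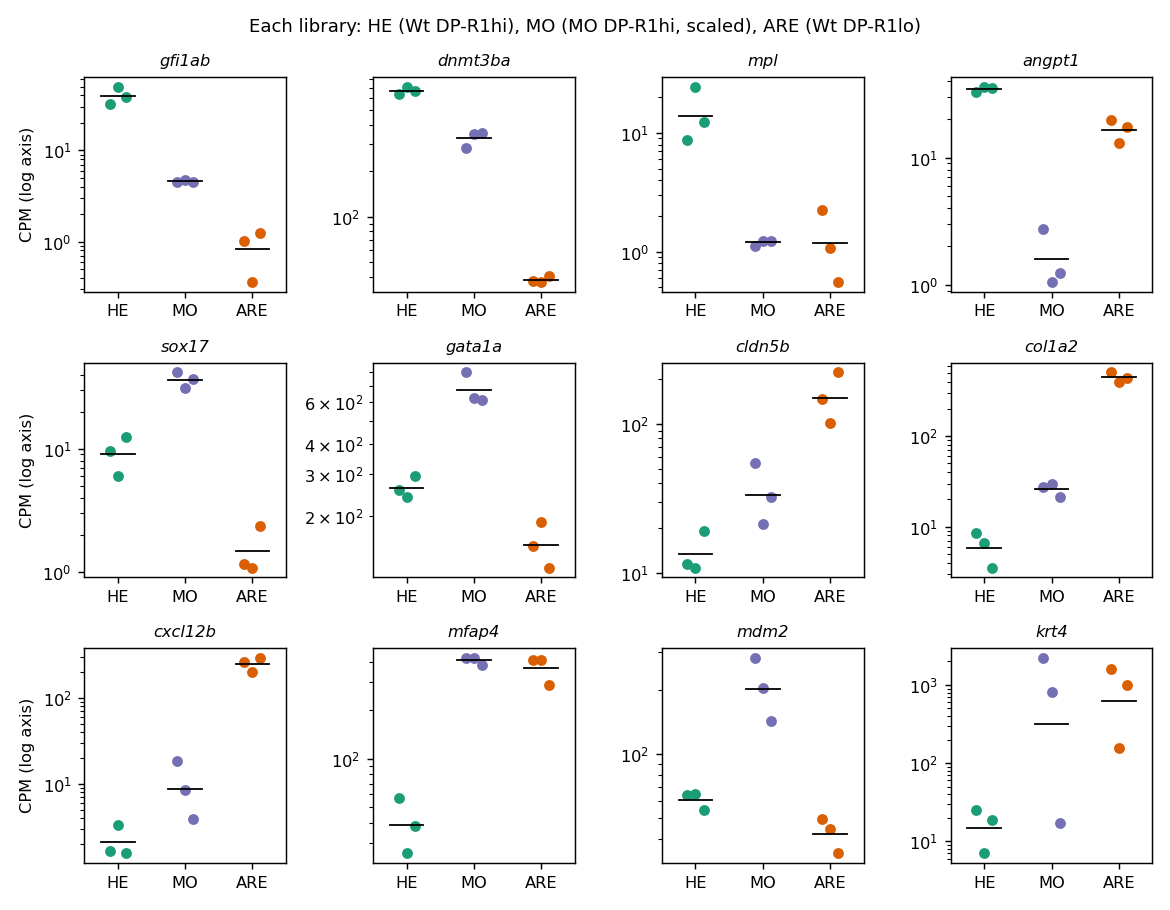
Points are single libraries of HE (Wt DP-R1hi), MO (MO DP-R1hi, scaled) and ARE (Wt DP-R1lo) on a log CPM axis that differs between panels, and bars are means of log2(CPM + 1) turned back to CPM. In gfi1ab and dnmt3ba MO lies between HE and ARE, in mpl and mfap4 it overlaps ARE, in angpt1 it lies below ARE, and in sox17, gata1a and mdm2 it lies above HE on the side away from ARE.

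Only 5 genes passed the roof, too few for a statement about a class. angpt1, the ligand that activates the endothelial Tie2 receptor, went furthest. It measured 33.0, 36.0 and 35.5 CPM in HE, 19.6, 12.9 and 17.3 CPM in ARE and 2.76, 1.05 and 1.23 CPM in MO, with no overlap between any groups, and MO lay -2.75 (95% interval -3.49 to -2.01, adjusted p = 0.00029) from the roof. mrpl28, a protein of the mitochondrial ribosome, had 12.1, 18.6 and 11.2 CPM in MO against 40.1, 41.2 and 38.4 CPM in ARE and 69.9, 61.4 and 62.9 CPM in HE, a difference of -1.48 (adjusted p = 0.0022). angpt1 and mrpl28 were called in all 6 fits that left out 1 library, and the other 3 were not. mdm4, a partner of Mdm2 in restraining p53, differed by -0.79 (adjusted p = 0.022) and lost its call without MO replicate 3 or ARE replicate 1 or 2 (adjusted p up to 0.078), and after centring its difference was 0.043. dmtn, dematin of the red cell membrane skeleton, differed by 0.56 (adjusted p = 0.026) and lost its call in 4 fits, without MO replicate 1 or any 1 ARE library (adjusted p up to 0.092). MGC173646 differed by 0.95 (adjusted p = 0.021) and lost its call without MO replicate 3 or ARE replicate 3 (adjusted p up to 0.069). The number past the roof was 3 without ARE replicate 1 and 3 without ARE replicate 2, and 9 with HE added to the fit.

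Arterial and Notch pathway genes held 15 members, and 14 of them were roof genes that rose in morphants. Of the 15, 9 stayed short of the roof, 1 reached it, 4 were not resolved and 1, sox17, lay on the far side (median difference -1.26 log2 units, -0.43 after centring). Among all 275 rising roof genes 55.6% stayed short, 16% reached the roof and 27.6% were not resolved. Members that stayed short included the vessel wall channels and junction proteins. cldn5b, a claudin of endothelial tight junctions, had 11.5, 10.8 and 19.2 CPM in HE, 54.7, 21.2 and 32.1 CPM in MO and 147, 102 and 221 CPM in ARE. MO lay above HE and below ARE in every library, -2.12 (95% interval -3.05 to -1.20, adjusted p = 0.0026) from the roof, with 37.2% of the distance covered. The water channels aqp1a.1 and aqp8a.1 measured 1143, 779.8 and 901 CPM and 51.5, 24.9 and 66.7 CPM in MO, against 2209, 2313 and 3079.7 CPM and 225, 121 and 348 CPM in ARE. Their differences were -1.43 (adjusted p = 0.00089) and -2.24 (adjusted p = 0.0045), and the share of the distance covered on the log2 scale was similar (47.4% and 48.3%). The ephrin ligand efna1b and the Eph receptor epha2a stayed short at -2.57 (adjusted p = 0.00071) and -2.40 (adjusted p = 0.0011). efna1b lay nearer to HE than to ARE, with 2.09, 6.36 and 4.65 CPM in MO against 1.73, 0.874 and 1.35 CPM in HE and 24.1, 28.5 and 35.1 CPM in ARE. Within the Notch pathway, the fringe glycosyltransferase lfng and the repressor her9 stayed short at -1.68 (adjusted p = 0.0023) and -1.59 (adjusted p = 0.0045). her6, a repressor of the same family, was short at -1.26 (adjusted p = 0.012), a call that was lost without ARE replicate 1 (adjusted p = 0.0501). The Notch ligand dlc was the member that reached the roof, with 26.7, 25.3 and 29.8 CPM in MO against 25.5, 25.6 and 43.2 CPM in ARE and 6.61, 3.44 and 12.4 CPM in HE, a difference of -0.16 (95% interval -0.80 to 0.49, adjusted p = 0.67). The Notch target hey2, the arterial ligand gene efnb2b, the gap junction gene cx43 and the growth factor vegfc were not resolved. Their differences were -0.79, -1.03, -0.71 and -0.47 log2 units, each with an interval that reached beyond the margin. That of efnb2b (-1.91 to -0.15) left out 0. In the alternative fit with the replicate number as a block, hey2, efnb2b and cx43 were called below the roof (adjusted p = 0.041, 0.012 and 0.035). That fit also called unresolved members of other lists. Among them were irf1b above the roof (adjusted p = 0.045) and dnmt3ab, hoxd3a, hoxd9a, cldnb and epcam below it (adjusted p = 0.027, 0.013, 0.027, 0.00075 and 0.0012).

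Genes of vessels in general were split. Of 8 members, 3 reached the roof (clic2, spns2 and selp), 2 stayed short (erg and esama), 1 passed it (angpt1), 1 lay on the far side (jam3b) and podxl was not resolved (median -1.23 log2 units, -0.40 after centring). esama, an adhesion molecule of endothelial junctions, stood at 47.7, 19.7 and 31.5 CPM in MO against 103, 113 and 209.9 CPM in ARE, a difference of -2.09 (adjusted p = 0.0024). spns2, the exporter of sphingosine 1-phosphate, was at the roof with 60.9, 49.0 and 85.1 CPM against 48.2, 55.9 and 68.3 CPM, and HE had 16.4, 23.3 and 35.4 CPM (difference 0.15, adjusted p = 0.66). clic2, an intracellular chloride channel, likewise held 167, 153 and 133 CPM in MO and 146, 141 and 98.6 CPM in ARE. Both venous-list members stayed short, nrp2a, a receptor of Vegfc and semaphorins, by -2.23 (adjusted p = 0.0014), and ctsla, a cathepsin protease that the lysosome list also holds, by -2.75 (adjusted p = 0.00015).

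Extracellular matrix genes lay far from the roof. All 17 members differed from ARE, 16 of them short and 1, mfap2, on the far side, with a median difference of -2.64 log2 units (-1.81 after centring) beside -0.61 over all members. HE to ARE distances were long for some, at 6.03 log2 units for col1a2, 4.94 for ctgfa and 3.49 for cthrc1a, and 1.66 for fstl1a. Among all rising genes with a distance above 3 log2 units the median difference was -2.05, and 76 of 91 stayed short. Matrix genes were not compared with other genes at equal distance. The type I collagen genes lay between HE and ARE and nearer to HE on the log2 scale. col1a2 measured 8.46, 6.59 and 3.52 CPM in HE, 27.3, 29.3 and 21.5 CPM in MO and 508, 402 and 439.7 CPM in ARE, -4.06 (95% interval -4.53 to -3.60, adjusted p = 2.1e-05) from the roof. col1a1a and col1a1b differed by -4.22 (adjusted p = 0.00015) and -3.98 (adjusted p = 7e-05). fn1a, fibronectin, tgfbi, a matrix protein induced by Tgf-beta, and ctgfa, a matricellular growth factor, were short at -1.85 (adjusted p = 0.00095), -2.64 (adjusted p = 0.00013) and -3.48 (adjusted p = 0.00044). The collagen-processing genes plod1a, p4ha2, serpinh1a and serpinh1b stayed short too, with differences of -2.24, -1.86, -1.99 and -3.27 log2 units. mmp2, a gelatinase, had a difference of -1.03 (adjusted p = 0.047) and lost its call without any 1 library other than MO replicate 1 (adjusted p up to 0.15). fstl1a lost it without MO replicate 1 or 2 or ARE replicate 1 or 3 (adjusted p up to 0.13), and after centring its difference was 0.048. Of 7 mesenchyme and neural crest markers, 4 (col1a1a, col1a2, fstl1a and ogn) are also on the matrix list. Of the 7, 6 stayed short (median -2.81 log2 units), among them snai2, a Snail-family repressor, and meox1, a somite homeobox gene, with differences of -3.70 (adjusted p = 0.00019) and -2.81 (adjusted p = 0.00015). snai2 had 60.1, 68.7 and 63.7 CPM in ARE, 6.35, 1.85 and 5.03 CPM in MO and 0.433, 2.86 and 0.570 CPM in HE. The col1a1a and col1a2 sums given above differ in the same way, and the part of mesenchymal cells in the ARE libraries was not tested.

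The member furthest below the roof was cxcl12b, the chemokine of arteries and stromal cells that guides Cxcr4-bearing cells. It measured 1.67, 3.26 and 1.55 CPM in HE, 18.4, 8.52 and 3.89 CPM in MO and 263, 199 and 290.3 CPM in ARE, a difference of -4.68 (95% interval -5.77 to -3.60, adjusted p = 0.00018). Its receptor gene cxcr4a, above, was short as well. pmp22a, a small membrane protein of the claudin superfamily and outside the lists, was at 20.4, 15.1 and 19.6 CPM in MO against 339, 240.2 and 276 CPM in ARE and 8.34, 5.48 and 5.54 CPM in HE (-3.88, adjusted p = 2.8e-05). For these genes MO lay 26.1% and 26.3% of the way from HE to the roof on the log2 scale.

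Signals that pattern the trunk vessels gave mixed positions. Of 11 BMP, Tgf-beta and retinoid members, 4 stayed short, 1 reached the roof, 4 were not resolved and 2 lay on the far side (median -0.37 log2 units, 0.46 after centring). Over all members 42.1% stayed short and 24.4% reached the roof. rarga, a retinoic acid receptor, was the furthest short, with 7.92, 3.33 and 4.27 CPM in MO and 47.9, 25.8 and 46.0 CPM in ARE (-2.75, adjusted p = 0.00064). The retinoic acid hydroxylase cyp26b1, the BMP pseudoreceptor bambia and the BMP-binding protein bmper were short at -0.95, -0.86 and -1.63 log2 units, and each lost its call without some single libraries. For cyp26b1 and bambia these were MO replicate 2 and ARE replicates 2 and 3 (adjusted p up to 0.082 and 0.10), and for bmper MO replicates 2 and 3 (up to 0.060). dhrs3b, a retinal reductase, reached the roof (0.011, adjusted p = 0.98). Among 6 Hox genes, which record position along the trunk (median -1.22 log2 units, -0.39 after centring), hoxb10a, hoxc3a and hoxd10a stayed short at -1.83 (adjusted p = 0.0054), -1.57 (adjusted p = 0.0041) and -1.33 (adjusted p = 0.037). hoxd11a reached the roof with 14.9, 10.7 and 10.6 CPM in MO and 9.45, 8.79 and 18.8 CPM in ARE, and hoxd3a and hoxd9a were not resolved. The hoxd10a call was lost without MO replicate 2 or 3 or ARE replicate 1 or 3 (adjusted p up to 0.12).

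Of the myeloid list, 17 of 18 members were higher in the roof than in HE and rose in morphants, and ptpro fell. Of the 18, 8 stayed short, 5 reached the roof, 4 were not resolved and 1, the receptor phosphatase gene ptpro, lay on the far side, with a median of -0.72 log2 units (0.11 after centring). Over all members 42.1% stayed short and 24.4% reached the roof, and among all rising roof genes 55.6% and 16% did. mfap4, a macrophage marker in zebrafish, lay at the roof level. It measured 57.2, 25.9 and 38.4 CPM in HE, 424, 424 and 383 CPM in MO and 413, 415 and 287 CPM in ARE, so MO overlapped ARE and stood clear of HE (difference 0.16, 95% interval -0.29 to 0.61, adjusted p = 0.53). havcr1, a phosphatidylserine receptor, was within the margin too, with 144, 133 and 139.9 CPM in MO, 189, 219 and 158 CPM in ARE and 10.4, 7.23 and 12.7 CPM in HE (-0.42, adjusted p = 0.086). mpeg1.1, the perforin-like macrophage gene, stayed short at 100.4, 155 and 82.7 CPM in MO against 289.7, 478 and 305 CPM in ARE and 14.03, 17.1 and 22.0 CPM in HE, a difference of -1.67 (95% interval -2.35 to -0.99, adjusted p = 0.002). csf1ra, the macrophage growth factor receptor, and tnfb, a tumour necrosis factor, both sat at the threshold with differences of -0.88 (adjusted p = 0.049) and -0.72 (adjusted p = 0.049). csf1ra lost its call without MO replicate 1 or 3 or ARE replicate 1 or 2, and tnfb without MO replicate 2 or 3 or ARE replicate 1 or 2 (both adjusted p up to 0.16), and tnfb had a difference of 0.10 after centring. irf8, the factor of the macrophage lineage, had 25.2, 38.5 and 33.3 CPM in MO and 48.5, 54.8 and 41.3 CPM in ARE and was not resolved (-0.57, adjusted p = 0.086). The lysozyme-like gene lygl1 and the cathepsin S gene ctssb.2 were short at -1.15 (adjusted p = 0.0046) and -1.23 (adjusted p = 0.0028). mafbb, a Maf factor of macrophages, had 13.6, 339 and 272 CPM in MO, with replicate 1 at the HE level of 11.1, 11.02 and 2.74 CPM and the other libraries near the ARE level of 323, 563 and 596 CPM, and its interval was among the 6 widest (-4.61 to 0.39). Macrophage marker sums lie above HE in both MO and ARE, as given above, and their part in these values was not tested. Granulocyte markers went the other way. mpx and cpa5, 2 of 3 in that set and absent from the ARE table, summed to 5687 to 7384 CPM in HE and 1588 to 2549.9 CPM in MO. The sum was not divided between neutrophils and other granulocytes.

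Lysosome and proton pump genes accompanied them, with 23 members, 22 of which were roof genes that rose. Of the 23, 10 reached the roof, 9 stayed short and 4 were not resolved (median -0.52 log2 units, 0.31 after centring). The subunits of the vacuolar ATPase, which acidifies lysosomes, were mostly within the margin of the roof. atp6v0e1, atp6ap2, atp6v1aa, atp6v1c1a, atp6v1c1b, atp6v1ba and atp6v0ca were all within it, with differences from -0.48 to -0.15 log2 units. Their HE to ARE distances ran from 0.86 (atp6ap2) to 2.31 log2 units (atp6v0ca). HE itself lay within the margin for atp6ap2 and for atp6v1c1a (0.99). The MO and ARE libraries did not overlap for atp6ap2 and atp6v1ba. atp6v0e1 stood at 213, 207 and 212 CPM in MO, 252, 245 and 211 CPM in ARE and 119, 99.5 and 121 CPM in HE. atp6v1e1b was short at -0.49 (adjusted p = 0.031) and lost its call without MO replicate 1 or 2 or ARE replicate 1 or 2 (adjusted p up to 0.11). The proteases of the lysosome were mostly short, with HE to ARE distances of 2.02, 2.53 and 4.84 log2 units for ctsc, ctsz and ctsla. The pump and protease genes were not compared at equal distance. The cathepsins ctsc and ctsz, the asparaginyl protease lgmn and the peptidase tpp1 stayed short at -1.05 (adjusted p = 0.011), -1.35 (adjusted p = 0.0032), -1.70 (adjusted p = 0.0002) and -0.87 (adjusted p = 0.012). ctsla was furthest, with 47.5, 26.6 and 71.5 CPM in HE, 235, 182 and 172 CPM in MO and 1196, 1051 and 1796 CPM in ARE (-2.75, 95% interval -3.31 to -2.19, adjusted p = 0.00015). ctsba and psap, the precursor of the saposins, had differences of -0.70 (adjusted p = 0.015) and -0.76 (adjusted p = 0.032), both above 0 after centring (0.13 and 0.068). The call of ctsba was lost without ARE replicate 2 (adjusted p = 0.058), and that of psap without MO replicate 3 or ARE replicate 2 or 3 (adjusted p up to 0.11).

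On the far side were 36 genes, 19 that stood above ARE in HE and rose further in morphants, and 17 that stood below ARE in HE and fell further. Their difference from the roof is fixed in direction by how members were chosen, so the values describe its size only. sox17, a SoxF transcription factor of endoderm and arterial endothelium, was the member of that kind on the arterial list. It measured 41.6, 31.2 and 36.6 CPM in MO, 9.64, 6.004 and 12.5 CPM in HE and 1.16, 1.08 and 2.34 CPM in ARE, with no overlap, and MO exceeded ARE by 3.91 log2 units (95% interval 3.24 to 4.58). ptgdsb, a prostaglandin D2 synthase, had the largest difference of any member, 4.78 log2 units (3.53 to 6.03), from 307, 200.05 and 274 CPM in MO, 51.1, 28.7 and 59.3 CPM in HE and 22.7, 4.15 and 5.68 CPM in ARE. helt, a basic helix-loop-helix repressor of the Hairy class, had 42.6, 29.5 and 37.0 CPM in MO against 3.13, 1.56 and 3.58 CPM in ARE. By the choice of members, each of these genes was higher in HE than in the roof and higher again in MO. The MO and HE libraries did not overlap in any of the 19 genes of this kind. Among primitive erythroid regulators, gata1a, klf17 and tal1 behaved alike in direction. gata1a measured 798, 624 and 614 CPM in MO, 256, 239 and 294 CPM in HE and 149, 187 and 121 CPM in ARE, 2.16 log2 units above the roof (1.66 to 2.66). klf17, the erythroid Krüppel-like factor gene, and tal1, which specifies blood and endothelial precursors, were 2.21 and 1.95 above it. The erythroid list was otherwise divided (10 members, median 0.60 log2 units, 1.42 after centring), with slc40a1, the iron exporter, and ca2, a carbonic anhydrase, short of the roof at -2.72 (adjusted p = 0.00019) and -2.07 (adjusted p = 0.00048). Globin shares rose in the same MO libraries, from 3.54 to 4.75% in HE to 10.3 to 16.6% of effective reads, and the part of primitive red cells in the MO libraries was not tested. bmp3, a divergent BMP ligand, and id2a, an inhibitor of helix-loop-helix factors and a BMP target, were 2.27 and 1.38 log2 units above the roof.

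Genes on the far side in the other direction included junction, matrix and cytoskeletal genes of the roof that fell below even the HE level. jam3b, a junctional adhesion molecule, had 75.5, 58.1 and 117 CPM in ARE, 14.6, 18.1 and 22.9 CPM in HE and 13.6, 8.15 and 8.55 CPM in MO, so that MO lay -2.90 log2 units from the roof (-3.68 to -2.13), below every HE library. MO and HE libraries did not overlap in 16 of the 17 genes of this kind (94.1%), which follows the choice of members. mfap2, a microfibril protein, had 7.54, 5.50 and 5.03 CPM in MO against 47.0, 43.6 and 47.4 CPM in ARE and 15.3, 10.96 and 14.4 CPM in HE. gstr, a glutathione S-transferase, was at 9.56, 10.7 and 2.85 CPM in MO against 61.4, 66.3 and 69.3 CPM in ARE and 23.4, 18.5 and 22.8 CPM in HE, -3.09 log2 units from the roof. The myelin proteolipid gene plp1a, its relative gpm6aa, the slow-muscle troponin gene tnnt1 and the calponin gene cnn3b were -2.73, -2.33, -2.49 and -1.72 log2 units from it. The first 3 of these were at low values, with MO libraries between 0.190 and 1.23 CPM. gstr and plp1a were also lower in injected cells negative for both reporters. There gstr had 28.8, 32.4 and 15.8 CPM against 65.0, 57.9 and 53.9 CPM in non-injected embryos. plp1a had 135, 204 and 130 CPM against 346, 382 and 322 CPM.

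The p53 and DNA damage genes did not share 1 position. Of 14 members, 7 were not resolved, 3 reached the roof, 1 stayed short, 1 passed it and 2 lay on the far side (median 0.22 log2 units, 1.05 after centring). mdm2, the ubiquitin ligase that p53 induces and that degrades p53, was one of the last pair, with 282, 204 and 143 CPM in MO, 63.9, 64.6 and 54.5 CPM in HE and 49.2, 44.4 and 34.2 CPM in ARE, 2.24 log2 units above the roof (1.58 to 2.89). phlda2, a pleckstrin homology domain protein, was the other, with 615, 354 and 831 CPM in MO against 81.3, 89.3 and 66.3 CPM in ARE and 130.2, 113 and 129.9 CPM in HE (2.84). phlda3, a p53 target that restrains Akt, and plk3, a stress-induced kinase, had higher MO than ARE means but were not resolved (1.29, adjusted p = 0.069, and 0.81, adjusted p = 0.084). The DNA repair gene parp1 reached the roof (0.26, adjusted p = 0.29). The same knock-down was measured in the DN gate, cells negative for both reporters, whose table lists 25 of the members, and 16 of these were higher in MO in both gates, 3 were lower in both and 6 moved in opposite directions. The authors counted genes that moved alike in both gates as morpholino off-targets and left them out of their Runx1 gene sets. Such genes are kept among the members here. In DN cells mdm2 rose from 14.1, 21.7 and 12.9 CPM to 227, 149 and 170.0 CPM, phlda3 from 10.4, 7.39 and 10.7 CPM to 134, 100.1 and 77.6 CPM and sesn3, a stress-induced antioxidant gene, from 7.77, 11.7 and 11.8 CPM to 83.4, 74.98 and 77.5 CPM. None of these overlapped between injected and non-injected DN libraries, as for all 25 listed members, which the authors had called in that gate. Leaving all 25 genes out gave 196 calls among 372 genes. Of the 8 immediate early and heat shock members, 5 were not resolved, 2 reached the roof and dnajb6b, a heat shock co-chaperone, lay on the far side (median 0.056 log2 units, 0.88 after centring). jun, an AP-1 subunit, had 179.5, 758 and 1061 CPM in MO and 256, 455 and 727 CPM in ARE, a difference of 0.26 log2 units with an interval from -1.27 to 1.78.

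Interferon and inflammatory genes held 7 members, of which 3 stayed short (irf9, psme2 and tnfb), irg1 reached the roof, trim35-7 lay on the far side and irf1b and nfkbiaa were not resolved (median -0.23 log2 units, 0.60 after centring). psme2, an interferon-induced proteasome activator, was an HE gene short at 1.13 (adjusted p = 0.0092), with 20.9, 19.9 and 18.6 CPM in HE, 9.78, 8.71 and 5.98 CPM in MO and 2.47, 3.31 and 3.64 CPM in ARE. irf9, the DNA-binding subunit of the interferon-stimulated factor, was a roof gene short at -1.23 (adjusted p = 0.016), a call that was lost without ARE replicate 1 or 3 (adjusted p up to 0.066).

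Cell cycle genes fell to the roof level under the scaling used, and after centring 7 of the 8 were above it. All 8 members were HE genes lower in MO than in HE, 7 reached the roof and arhgap11a was not resolved, with a median difference of 0.039 log2 units (0.87 after centring). mki67, the proliferation marker, had 275, 402 and 303 CPM in HE, 220.3, 145 and 191 CPM in MO and 185, 208 and 151 CPM in ARE, a difference of 0.022 (95% interval -0.49 to 0.53, adjusted p = 0.94). mcm5, of the replicative helicase, rrm1, of ribonucleotide reductase, and stmn1a, a microtubule regulator, differed by -0.21, -0.11 and 0.07 log2 units. Most HE to ARE distances here were under 1 log2 unit (0.63 to 1.04 for these 4 genes), so the margin is wide relative to them. Of 3 ribosome biogenesis members (median 0.13 log2 units, 0.95 after centring), abcf2a and brf1a reached the roof and mybbp1a, a nucleolar Myb-binding protein, stayed short at 1.39 (adjusted p = 0.00065), with 155, 151 and 149 CPM in MO against 47.5, 61.4 and 64.5 CPM in ARE and 209.9, 266 and 271 CPM in HE.

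Outside the lists, adh5, an alcohol dehydrogenase, and the tetraspanin tspan36 were among the members closest to the roof, with differences of 0.098 (95% interval -0.29 to 0.48, adjusted p = 0.66) and -0.20 (95% interval -0.57 to 0.17, adjusted p = 0.33). tspan36 had risen from 86.6, 60.0 and 80.0 CPM to 229, 217 and 261 CPM, beside 274, 271 and 266 CPM in ARE. adh5 had fallen from 241, 273 and 241 CPM to 135, 139 and 122 CPM, beside 123, 127 and 119.7 CPM. mknk2b, a kinase on the stress list, agap2 and st5 were similarly placed, with differences of 0.082, -0.067 and -0.055 log2 units. After centring, adh5, mknk2b, tspan36, agap2 and st5 all stood above the roof (0.93, 0.91, 0.63, 0.76 and 0.77).

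Epidermal genes differed widely between libraries of one group. Of 12 members, 7 were not resolved, 4 stayed short and s100a10b reached the roof (median -1.07 log2 units, -0.24 after centring). krt4, a keratin of the surface layer, had 2211, 806 and 17 CPM in MO and 1592, 156 and 1003 CPM in ARE, so that MO replicate 3 was at the HE level of 25.02, 7.05 and 18.5 CPM and the other MO libraries were above it (-4.90 to 2.93). cyt1l, anxa1c and agr1 had the same pattern, with MO replicate 3 at 0.475, 0.949 and 0.380 CPM against 199, 77.0 and 52.1 CPM in replicate 1. krt8 and cldn7b, by contrast, stayed short in all fits without 1 library (-2.18, adjusted p = 0.00067, and -2.23, adjusted p = 0.0071). cdh1 and spint2 were short at -1.15 and -1.19 log2 units and lost their calls without some single libraries. For cdh1 these were MO replicate 2 and ARE replicate 1 (adjusted p up to 0.092), and for spint2 MO replicates 2 and 3 and ARE replicates 1 and 2 (up to 0.13). Of 8 neural members (median -0.46 log2 units, 0.37 after centring), 4 were not resolved, cplx2l reached the roof, appa, an amyloid precursor protein gene, stayed short at -1.82 (adjusted p = 0.0016), and plp1a and gpm6aa lay on the far side. Of 3 muscle members, pygma, muscle glycogen phosphorylase, was an HE gene short at 1.75 (adjusted p = 0.0019), and tnnt1 and cnn3b lay on the far side.

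**Figure D4:**
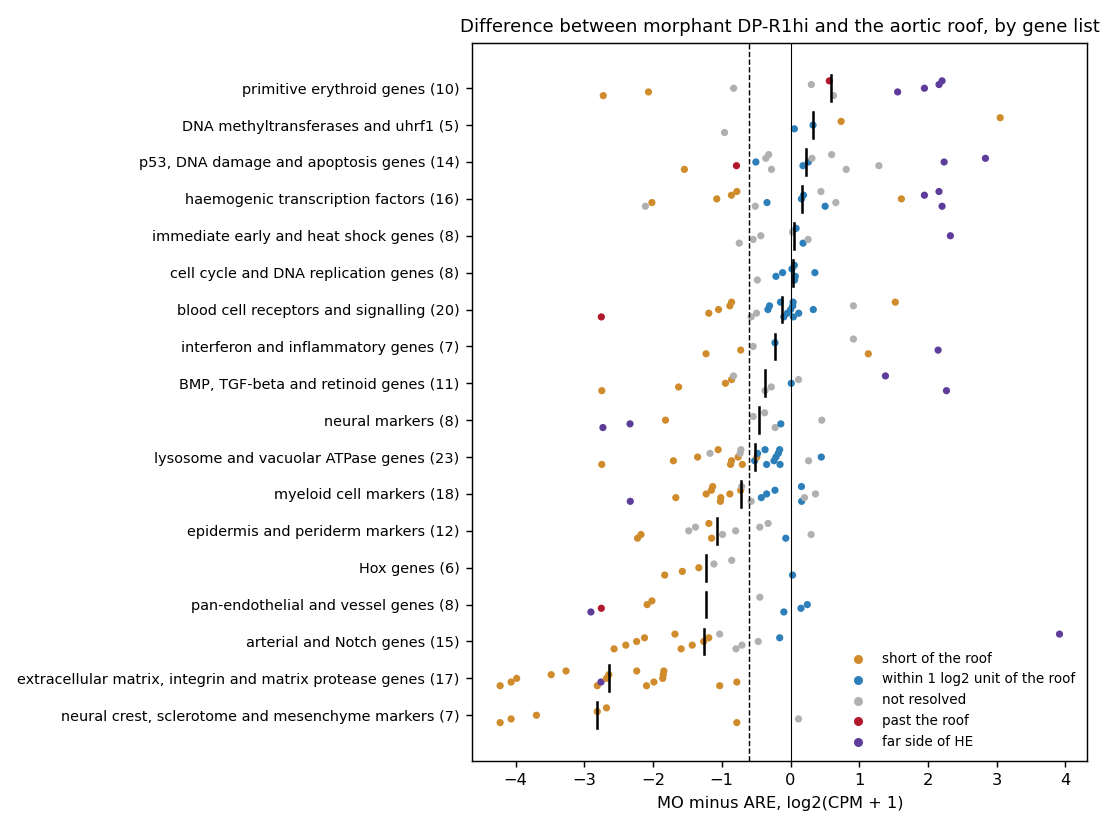
Points are members of each gene list with 5 or more members, at their MO minus ARE difference in log2(CPM + 1) (x axis) and coloured by position, with a black bar at the list median; a gene on several lists appears in each. The solid line marks the roof level and the dashed line the median over all members (-0.61). List medians run from -2.81 for mesenchyme markers to 0.60 for erythroid genes, of which 4 of 10 lay on the far side.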

How the data were processed

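RNA-seq values of 9 libraries were used, 3 each of MO DP-R1hi, Wt DP-R1hi and Wt DP-R1lo, with the 6 DN libraries for 25 members. Upstream, the authors used Trimmomatic 0.32 for trimming, STAR for alignment to the build they name Zv10, featureCounts for gene counts and edgeR for their tests; use of strand is not given in the sources used here. The deposited CPM values are the authors' read counts scaled to effective library sizes, from 1 model for the non-injected endothelial gates and another for the injected and non-injected gates, and each deposited table lists only genes at an FDR under 0.05. The authors' fold change, likelihood ratio and p-value columns were not used, and 0 sample columns were unmapped. Genes were matched by symbol, MO values were divided by the mean ratio of the shared HE columns, and log2(CPM + 1) was tested with limma 3.58.1 in R 4.3.3 (lmFit, eBayes with a mean trend, two-sided) over 3 libraries a group, with Benjamini-Hochberg adjustment over 397 genes and no filter on low values. CPM are not counts and no count test was run. The fit was checked on simulated data. Members and lists were chosen with earlier results of these data known. Genes were named from the lists, from the 6 largest differences in each called position, from the 8 members with an HE to ARE distance over 1 whose intervals held closest to the roof and from the 6 widest intervals. The labels do not say what a replicate number stands for, so p-values measure the spread between these samples. The main test did not pair libraries by that number. A log2(CPM + 1) difference understates the change of low genes. Alternatives were the scaling, the pseudocount (0.5 and 5), a filter of 5 CPM, no mean trend, HE added, the number of tests, the replicate block, the margin and leaving out each library.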

Additional observations from a re-analysis of the deposited data

Results flagged for a closer look

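Members were compared between gates for the direction of the injected minus non-injected difference, since the DN table gives the same knock-down in cells negative for both reporters. For 6 genes every injected library lay on one side of the non-injected libraries in the DP-R1hi gate and on the opposite side in the DN gate. The lack of overlap follows from selection, since the authors had called each listed gene between the arms. It held for 362 of the 397 members (91.2%) in DP-R1hi and for all 25 listed in DN. The difference between gates was not tested, and all values are on log2(CPM + 1) within each table.

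The macrophage marker mfap4 was lower in injected DN cells and higher in injected DP-R1hi cells (-1.19 in DN and 3.38 in DP-R1hi), with 2.83, 2.04 and 2.33 CPM in MO DN against 6.31, 5.15 and 9.27 CPM in Wt DN. tnfb, a tumour necrosis factor gene, did the same (-0.86 in DN and 1.98 in DP-R1hi), and so did the endothelial claudin gene cldn5b (-1.19 in DN and 1.26 in DP-R1hi), at 1.35, 0.398 and 2.15 CPM in MO DN. MGC173646 (-1.74 in DN and 1.72 in DP-R1hi) and zgc:173915 (-1.29 in DN and 3.45 in DP-R1hi) shared that direction. mybbp1a went the other way (0.89 in DN and -0.70 in DP-R1hi), higher in injected DN cells at 154, 139 and 167 CPM against 70.4, 93.7 and 84.2 CPM and lower in injected DP-R1hi cells.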

How the results depend on the processing

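The counts of genes called higher, called lower, short of the roof and on the far side stayed within 1.5 times their main value under the alternatives of scaling by library ratio, pseudocount, filter and mean trend, and 188 of the 208 calls held under all 4 scaling settings (none, lowest, highest and same-numbered ratio). Centring on the member median kept 126 of the 208 calls and reversed the sign of 12, and gave 115 genes higher, 91 lower and 39 past the roof. Setting the tests to the 3011 genes listed in either table, with genes outside the 397 counted as not called, gave 137 calls, 112 of them lower, 100 short and 2 past, by its construction. Adding HE to the fit gave 9 genes past the roof, of which the cause was not tested. A margin of 0.5 of each gene's HE to ARE distance left 30 genes within it, beside 97 with the fixed margin, so the number that reached the roof depended on the margin. Without 1 library each, 30 to 36 genes were higher, 150 to 176 lower, 141 to 169 short, 3 to 7 past, 36 on the far side and 66 to 90 within the margin, and 163 of the 208 calls were made in all 6 fits. The far-side genes are among the 208. Their count could hardly change, since the choice of members fixes their direction. Of 103 named called genes, 22 lost their call without at least 1 library.

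Of the named genes called with or without centring, the following had a negative difference that turned positive by the 0.83 log2 units that centring adds: agap2 (0.76), atp6ap2 (0.65), atp6v0e1 (0.67), atp6v1c1a (0.62), atp6v1e1b (0.34), ctsba (0.13), fstl1a (0.048), lmo4a (0.048), mcm5 (0.62), mdm4 (0.043), pik3r1 (0.78), psap (0.068), rrm1 (0.71), st5 (0.77), tnfb (0.10) and tspan36 (0.63).

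Replicate numbers were shared by the groups. With the replicate number as a block, 226 genes were called, 206 of them shared with the 208. The deviations of HE and ARE libraries with the same number correlated at 0.21, 0.29 and 0.35, and those with different numbers at -0.24 to -0.037. Those of MO and ARE libraries with the same number correlated at 0.48, 0.16 and -0.018, and MO replicate 3 correlated best with ARE replicate 2 (0.35). The numbers were therefore not taken as pairs between MO and ARE.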
